A study of Homo sapiens with 6 samples.

Results

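A set of 41 genes of glycolysis and of the cellular response to low oxygen was followed in THP-1 cells after knockdown (KD) of NFIC. The genes were taken by symbol from a list drawn up with earlier results of these data known. It holds the oxygen sensors, hypoxia-induced genes, glucose and lactate transporters, the switches of glycolytic flux and the enzymes of the pathway itself. All 41 were found among the 33981 genes of the deposited count table, and 38 of them carried enough reads to be tested. EGLN3, ADM and CA9 were not tested because they were at or near 0.

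THP-1 is a human monocytic acute myeloid leukemia (AML) cell line. Per the labels the cells were grown in IMDM with 10% FBS (the study's supplement names RPMI for this line) and infected on retronectin with lentivirus carrying, behind a U6 promoter, either a scrambled shRNA (samples C1, C3 and C4) or an shRNA against NFIC (samples N1, N2 and N3). The vector also carried EGFP and a puromycin resistance gene, and GFP-positive cells of both groups were sorted on day 4 after infection for bulk RNA sequencing. The labels call the control scrambled shRNA, the methods call it a GFP-only vector, and the name of the labels is used here. A single NFIC shRNA was used, so what follows from that hairpin and what follows from less NFIC cannot be told apart. Nothing in the labels says that the 3 samples of a group came from separate cultures, so the p-values measure the spread between these samples, which may be technical. In bulk RNA, fewer cells that express a gene and less of its RNA per cell cannot be told apart.

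Depth was between 20369543 and 24809720 counts per sample, at which 3 counts correspond to between 0.122 and 0.145 CPM, the counts scaled to library size. Such a limit covers counting error only. Levels are given as CPM scaled by the TMM factors, and tests come from edgeR's quasi-likelihood fit of all 19182 genes that passed the filter on low counts, with Benjamini-Hochberg adjustment over all of them and a threshold of 0.05. NFIC itself stood at 42.1, 41.4 and 42.2 CPM in C1, C3 and C4 and at 19.3, 22.3 and 21.3 CPM in N1, N2 and N3. The groups did not overlap, and 50.1% of the scrambled level remained (log2 fold change -0.99 ± 0.072 SE, adjusted p = 3.74e-09 from edgeR). All 10 markers of the monocytic line that were looked up were expressed, while of the markers of other lineages HBB and EPCAM were near 0. The monocytic markers themselves moved in both directions with NFIC shRNA. Of the 10, 4 were higher (40%, against 29.6% of all genes tested), among them ITGAM, LYZ and CD14. Another 5 were lower (50%, against 30.3% of all genes tested), among them CD68, CD4 and CD33. The summed level per length of the monocytic markers rose from a range of 688.7 to 750.6 CPM per kb to a range of 790.1 to 886.4 CPM per kb. LYZ alone went from a mean of 331 to 545 CPM per kb, while CD68 went from 120.5 to 60.0 and CSF1R from 42.5 to 28.3 CPM per kb. The summed level of the other-lineage markers, in which PECAM1 rose and COL1A1 fell, went from a range of 20.6 to 23.6 CPM per kb to a range of 31.0 to 34.9 CPM per kb. PECAM1 made up most of that sum, with means of 20.4 and 31.7 CPM per kb. The part of these shifts in the results below was not tested.

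Glycolysis splits glucose into pyruvate in the cytosol, and lactate dehydrogenase then turns pyruvate into lactate, which leaves the cell through monocarboxylate transporters. With oxygen present, prolyl hydroxylases of the EGLN family mark the alpha subunits HIF1A and EPAS1 for the VHL ubiquitin ligase, and they are destroyed. In low oxygen the alpha subunits escape, pair with ARNT, bind hypoxia response elements with the core letters ACGTG or GCGTG, and raise transcription of glycolytic genes, of VEGFA and of their own inhibitors. Leukemic and monocytic cells are known for a high glycolytic rate. RNA levels report neither the stability of HIF1A protein nor glycolytic flux, neither of which was measured in these samples.

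The core letters of the response element were looked for before the starts of these genes. RefSeq promoter windows of GRCh38.p14, from 250 bases before to 50 bases after a transcript start, were matched to 36 of the 41 genes, all but VHL, VEGFA, NDRG1, SLC2A3 and SLC16A1. The letters ACGTG, searched on both strands, stood in at least 1 window of 20 of the 36 genes (55.56%), against 24.87% of all 27305 genes with a window. Per window the figures were 24 of 64 (37.5%) and 21.41% of 35116. The stretches below are shown because they come from the genes whose RNA changed most among those with a match before the start: the 4 with the strongest decrease and all 3 with an increase. Capitals mark ACGTG alone, written CACGT where it reads on the opposite strand, and GCGTG is left in lower case, and all 7 lie on the plus strand of genes that point the same way. They are HK2 at chr2:74834067-74834095, PDK1 at chr2:172556061-172556089, GPI at chr19:34364818-34364846, LDHA at chr11:18394478-18394506, PDK3 at chrX:24465213-24465241, SLC16A3 at chr17:82228975-82229003 and PGK1 at chrX:78104053-78104081.
HK2: aatgggcgtgcgCACGTcactgatccgga
PDK1: cctgctgcccgcCACGTccctCACGTacc
GPI: acactgcctgtaACGTGgaaggtgttcga
LDHA: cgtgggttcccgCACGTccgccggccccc
PDK3: cgcgcgccgcgtACGTGcagcaaccgact
SLC16A3: cgtgcgcgggggACGTGccgcgccagcga
PGK1: aaacggaagccgCACGTctcactagtacc
The marked ACGTG began 48 bases before the start in HK2, 73 in LDHA, 162 in GPI, 61 in PDK3, 55 in SLC16A3 and 183 in PGK1, and the nearer of the 2 in PDK1 began 8 bases before it. By the direction of the RNA, ACGTG was found in 12 of the 18 genes with a window that fell, in 3 of the 7 that rose, in 4 of the 8 that were not called and in 1 of the 3 that were not tested. GCGTG was found in 20 of the 36 genes (55.56%, against 40.57% of all genes), and per window in 39.06% against 36.54%. TTGGC, the repeat unit of the binding site of the NFI family to which NFIC belongs, was found in 22 of the 36 (61.11%, against 50.64%). Among these were 9 of the 18 that fell and 5 of the 7 that rose. Per window the comparison went the other way, with TTGGC in 26 of 64 (40.62%) against 45.62% of all. A share per gene also depends on how many windows each gene has, here 64 for 36 genes against 35116 for 27305. The full NFI palindrome was found in none of the 36, and in 10 of all 35116 windows. A match is a run of letters and not an occupied site.

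With NFIC shRNA, more of the set fell than rose, and genes of both the pathway and the hypoxia response moved in either direction. Of the 38 genes tested, 21 were lower, 8 were higher and 9 were not called. Over all genes tested, 30.3% were lower and 29.6% higher by the same rule (59.9% in either direction), and among the 38 the shares were 55.3% and 21.1%. The median log2 fold change of the set was -0.28, against -0.011 over all genes tested. The samples of the groups did not overlap in CPM for 31 genes, of which 22 were lower and 9 higher with NFIC shRNA. Over all genes tested, 65.2% did not overlap (33% lower, 32.2% higher). These are descriptions of a listed set, and no test of the set as a whole was made.

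**Figure D1:**
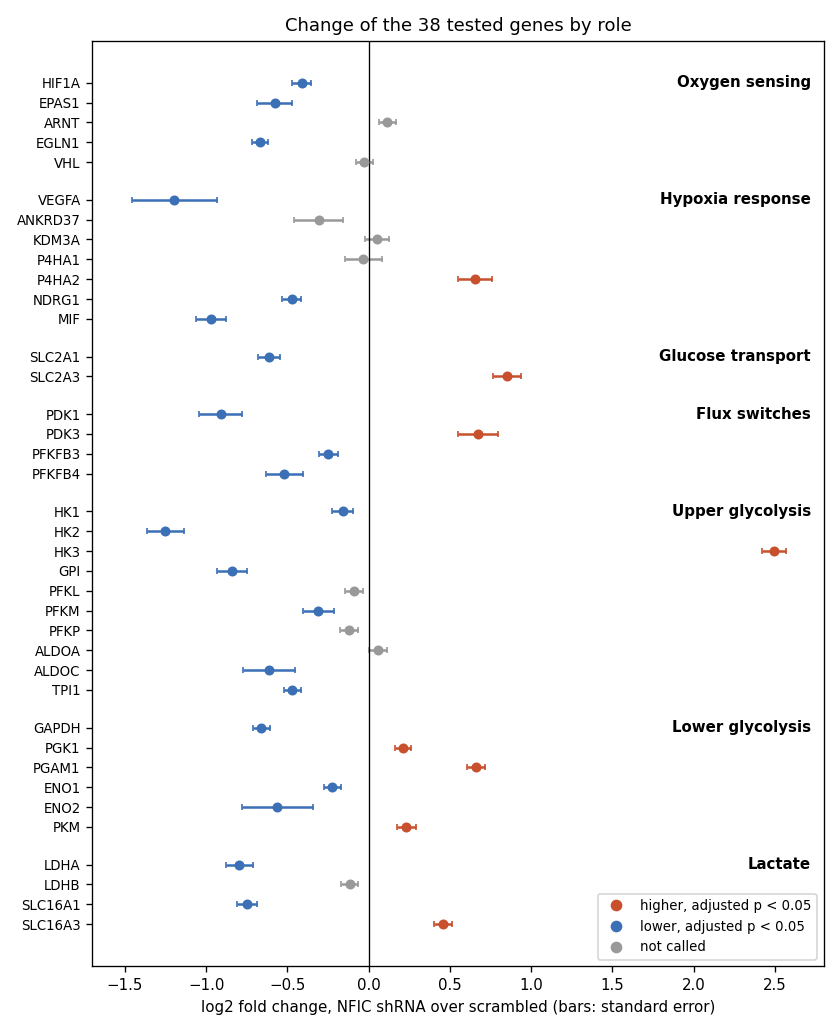
Log2 fold change of each of the 38 tested genes, NFIC shRNA over scrambled (x axis), with its standard error as the bar, grouped by role (y axis). Red marks 8 genes that were higher, blue 21 that were lower and grey 9 that were not called at an adjusted p under 0.05 from edgeR. HK3, at 2.49, lies far to the right of the others, and HK2 and VEGFA, at -1.25 and -1.20, lie farthest to the left.

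The oxygen sensors were examined by RNA first. Both alpha subunits of the hypoxia-inducible factor fell. HIF1A (ENSG00000100644, chromosome 14), the broadly expressed alpha subunit, stood at 75.7, 71.6 and 75.7 CPM in the scrambled samples and at 53.7, 58.9 and 54.9 CPM with NFIC shRNA. The highest NFIC shRNA sample lay well under the lowest scrambled sample (log2 fold change -0.41 ± 0.059 SE, adjusted p = 1.07e-05 from edgeR). EPAS1, which encodes the HIF2 alpha subunit, was sparse in these cells, at 10.8, 11.4 and 12.5 CPM against 8.24, 7.75 and 7.23 CPM. Again the groups were apart, and the log2 fold change was -0.58 ± 0.11 SE (adjusted p = 0.000189 from edgeR). Per length, HIF1A made up 90.1% ± 0.681 (SD, n = 3) of the summed level of both subunits with scrambled shRNA and 91.1% ± 0.729 (SD, n = 3) with NFIC shRNA, a shift with an exact permutation p of 0.2 (0.244 after adjustment over 11 groups of paralogs). ARNT, the common partner of both, had 99.2, 109 and 108 CPM against 112, 113 and 117 CPM. Its NFIC shRNA samples all lay above the scrambled ones, but the change of 0.11 on the log2 scale was not called (adjusted p = 0.0758 from edgeR).

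EGLN1 (ENSG00000135766, chromosome 1 from 231363751 to 231422287), the main oxygen-sensing prolyl hydroxylase and itself induced by HIF in many cells, had 183, 187 and 194 CPM with scrambled shRNA. With NFIC shRNA it had 116, 119 and 119 CPM. The samples of each group nearly coincided, and the log2 fold change was -0.67 ± 0.049 SE (adjusted p = 3.64e-09 from edgeR). An overlapping gene on the same strand, AL445524.2, shares 55.8% of the EGLN1 exon bases and has 86.6% as many counts, so reads in the shared exons cannot be assigned to either. VHL, the substrate receptor of the ligase, ranged from 185 to 198 CPM in the controls and from 179 to 197 CPM after NFIC KD, and was not called (log2 fold change -0.03, adjusted p = 0.683 from edgeR). EGLN3, a strongly hypoxia-inducible hydroxylase, had 1 count in C4, 1 count in N2 and 0 in the other 4 samples.

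Among the genes known as targets of HIF that lie outside glycolysis, VEGFA, MIF and NDRG1 fell and P4HA2 rose. VEGFA (ENSG00000112715, chromosome 6 from 43770184 to 43786487), the vascular endothelial growth factor, stood at 287, 185 and 269 CPM in C1, C3 and C4. In N1, N2 and N3 it stood at 112, 134 and 78.2 CPM. Its scrambled samples were spread more widely on the log2 scale than those of any other tested gene of the set: C3 lay below C1 and C4. N2 lay above N1 and N3, yet the lowest scrambled sample stayed above the highest NFIC shRNA sample. The mean fell to 43.6% of the scrambled level (log2 fold change -1.20 ± 0.26 SE, adjusted p = 0.0115 from edgeR), and its adjusted p was at most 0.0465 over the alternatives tried with edgeR or DESeq2. MIF (chromosome 22 from 23894383 to 23895227), a cytokine secreted by leukocytes, stood at 147, 187 and 158 CPM against 77.9, 93.9 and 79.1 CPM. The mean was 51.0% of the scrambled level (log2 fold change -0.97 ± 0.092 SE, adjusted p = 2.43e-06 from edgeR). MIF-AS1 covers 94.1% of the MIF exon bases on the opposite strand and its counts differed from those of MIF by at most 1.56% in any sample, so MIF and MIF-AS1 cannot be told apart. NDRG1, a growth-restraining protein raised by hypoxia and differentiation, had 80.6, 79.7 and 89.5 CPM against 59.3, 59.4 and 60.9 CPM (log2 fold change -0.47 ± 0.059 SE, adjusted p = 2.42e-06 from edgeR). Here the NFIC shRNA samples were almost equal.

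The collagen prolyl 4-hydroxylases, which modify procollagen in the endoplasmic reticulum, did not move alike. P4HA2 had 8.63, 10.3 and 10.7 CPM against 15.3, 16.7 and 14.7 CPM, an increase without overlap (log2 fold change 0.65 ± 0.10 SE, adjusted p = 3.54e-05 from edgeR). P4HA1, the far more abundant isoform, had 110, 110 and 118 CPM against 94.5, 135 and 101 CPM. N2 lay above every scrambled sample and N1 and N3 below every one of them, and the gene was not called (log2 fold change -0.03, adjusted p = 0.827 from edgeR). Without N2 its log2 fold change was -0.20 with an adjusted p of 0.00913 from edgeR. Per length, P4HA1 made up 96.9% ± 0.284 (SD, n = 3) of the pair with scrambled shRNA and 95.0% ± 0.621 (SD, n = 3) with NFIC shRNA, without overlap (exact permutation p = 0.1, the smallest that 3 against 3 samples allow).

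KDM3A, a histone H3 lysine demethylase, and ANKRD37, an ankyrin repeat protein, are HIF targets in many cell types, and neither was called. KDM3A had between 50.5 and 59.1 CPM against between 54.2 and 63.1 CPM, with overlapping groups (log2 fold change 0.05, adjusted p = 0.557 from edgeR), and its sign depended on the scaling: it was -0.0046 with upper-quartile normalization. ANKRD37 had 5.22, 4.42 and 4.62 CPM against 3.44, 3.74 and 4.29 CPM, which did not overlap, but its change of -0.31 missed the threshold (adjusted p = 0.0882 from edgeR). UFSP2, on the opposite strand, shares 40.35% of the ANKRD37 exon bases and has 301.2% as many counts, so some ANKRD37 counts may be reads of UFSP2. ADM, a vasodilator peptide, had between 1 and 3 counts per scrambled sample and 7, 1 and 6 counts in N1, N2 and N3. CA9, a cell-surface carbonic anhydrase used as a marker of hypoxic tumors, had between 2 and 4 counts and between 0 and 3 counts. At this depth no difference in EGLN3, ADM or CA9 was detectable.

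**Figure D2:**
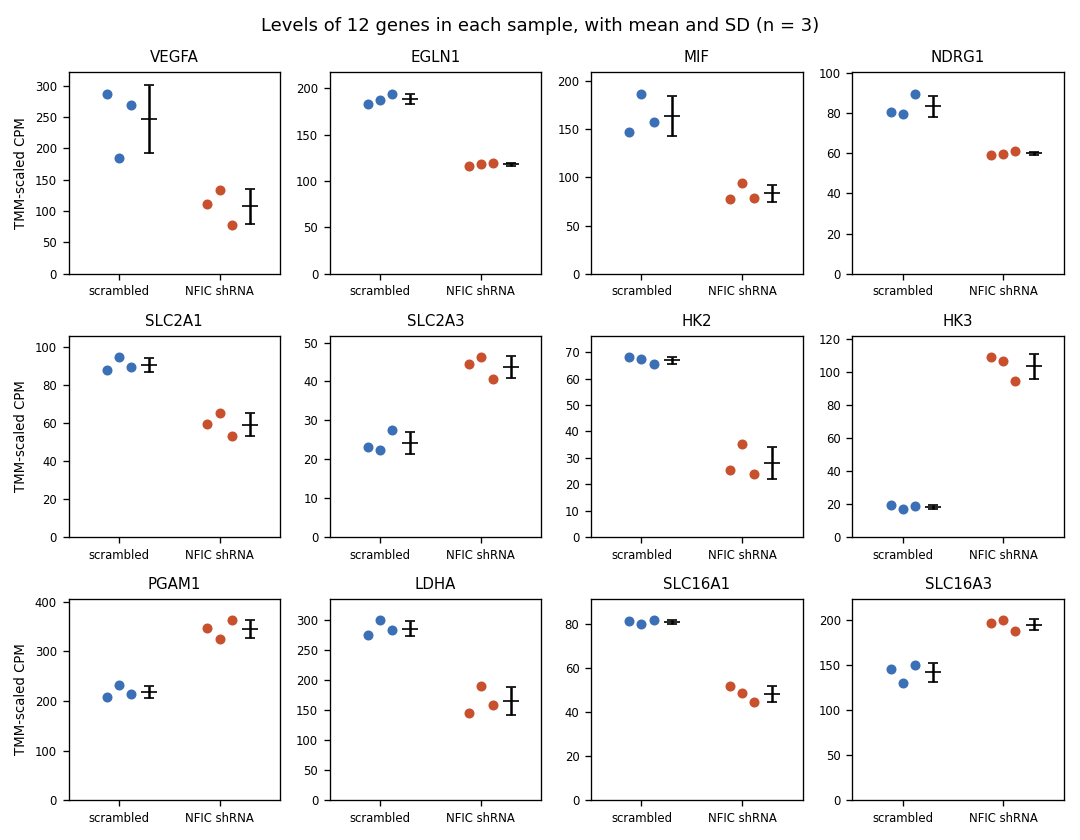
Level in TMM-scaled CPM (y axes, each from 0) of 12 genes in the 3 scrambled (blue) and 3 NFIC shRNA (red) samples, in the order C1, C3, C4 and N1, N2, N3, with mean and SD beside the points. No gene shown has overlapping groups: SLC2A3, HK3, PGAM1 and SLC16A3 stood higher with NFIC shRNA and the other 8 lower, and N2 was the highest red point for VEGFA, MIF, SLC2A1, HK2 and LDHA among those that were lower.

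Glucose entry showed opposite changes of its carriers. SLC2A1 (GLUT1; chromosome 1 from 42925353 to 42958893), the basal and HIF-responsive glucose transporter, stood at 87.8, 94.8 and 89.5 CPM against 59.3, 65.2 and 53.2 CPM (log2 fold change -0.61 ± 0.068 SE, adjusted p = 6.48e-07 from edgeR). SLC2A3 (GLUT3; chromosome 12 from 7919230 to 8019007), a high-affinity transporter of leukocytes and neurons, stood at 23.0, 22.3 and 27.5 CPM against 44.4, 46.2 and 40.6 CPM (log2 fold change 0.85 ± 0.083 SE, adjusted p = 1.44e-07 from edgeR). Neither gene had overlapping groups. Of the summed level of both per length, SLC2A1 made up 84.0%, 85.4% and 81.7% in C1, C3 and C4 and 64.8%, 66.0% and 64.3% in N1, N2 and N3 (exact permutation p = 0.1, 0.157 after adjustment over 11 groups of paralogs). GLUT1 thus stayed the larger part in every sample, with a share lower by 18.7 percentage points. The near-identical gene SLC2A14 rose too, by 0.98 on the log2 scale (adjusted p = 1.51e-07 from edgeR). The 3 processed pseudogenes of SLC2A3 in the table together had 94.6% as many counts as SLC2A3. Most of these lay on SLC2A3P1, which sits wholly within exons of PANK3 on the same strand, and with the pseudogene counts added the log2 fold change of SLC2A3 was 0.64.

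The genes that set the direction of flux likewise diverged. Pyruvate dehydrogenase kinases inhibit the pyruvate dehydrogenase complex, which turns pyruvate into acetyl-CoA inside the mitochondrion. PDK1 (chromosome 2 from 172555373 to 172608669), the HIF-induced kinase, stood at 34.8, 41.1 and 41.2 CPM against 17.3, 26.1 and 18.8 CPM (log2 fold change -0.91 ± 0.13 SE, adjusted p = 0.000101 from edgeR). All 3 NFIC shRNA samples lay below the scrambled ones, N2 being the nearest to them. PDK3, on the X chromosome, rose from 6.97, 6.25 and 5.22 CPM to 10.3, 9.56 and 9.65 CPM (log2 fold change 0.67 ± 0.12 SE, adjusted p = 0.000157 from edgeR). Per length, PDK1 made up 85.1% ± 2.95 (SD, n = 3) of the pair with scrambled shRNA and 65.3% ± 5.51 (SD, n = 3) with NFIC shRNA. The groups did not overlap (exact permutation p = 0.1, 0.157 after adjustment over 11 groups of paralogs). PFKFB3 and PFKFB4 make fructose 2,6-bisphosphate, the strongest activator of phosphofructokinase, and both fell. PFKFB3 had 66.1, 63.7 and 66.5 CPM against 56.6, 57.0 and 51.6 CPM (log2 fold change -0.25, adjusted p = 0.00167 from edgeR), and PFKFB4 had 19.9, 24.6 and 21.4 CPM against 12.8, 18.1 and 15.1 CPM (log2 fold change -0.52, adjusted p = 0.00098 from edgeR). The proportion between them was not shown to differ, PFKFB3 making up 74.8% ± 2.45 and 78.3% ± 2.94 of the pair per length (SD, n = 3 in each group, exact permutation p = 0.2).

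The hexokinases, which trap glucose in the cell as glucose 6-phosphate, held the largest changes of the set in both directions. HK3 (ENSG00000160883, chromosome 5 from 176880869 to 176899346), the hexokinase of myeloid cells, stood at 19.2, 17.0 and 19.0 CPM in the scrambled samples. In the NFIC shRNA samples it stood at 109, 107 and 94.8 CPM. The mean was 5.63 times the scrambled mean (log2 fold change 2.49 ± 0.073 SE, adjusted p = 8.73e-14 from edgeR), with the lowest NFIC shRNA sample far above the highest scrambled sample. HK2 (ENSG00000159399, chromosome 2 from 74834127 to 74893359), the HIF-inducible and mitochondria-bound form prominent in tumors, moved the other way. It stood at 68.1, 67.2 and 65.5 CPM against 25.2, 35.1 and 23.9 CPM. The mean fell to 42.0% of the scrambled level (log2 fold change -1.25 ± 0.11 SE, adjusted p = 1.86e-06 from edgeR). HK1, the ubiquitous form, had 43.8, 40.9 and 43.6 CPM against 39.2, 37.0 and 38.4 CPM. That small decrease (log2 fold change -0.16 ± 0.064 SE, adjusted p = 0.0381 from edgeR) lost its call under 9 of 14 alternatives, with adjusted p between 0.00713 and 0.153 over all of them.

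In level per length, HK2 was the leading hexokinase with scrambled shRNA and HK3 with NFIC shRNA. HK2 made up 47.4%, 49.4% and 46.6% of the summed level of the 3 genes in C1, C3 and C4 and 9.80%, 13.5% and 10.4% in N1, N2 and N3. HK3 went from 23.9%, 22.3% and 24.2% to 75.9%, 73.2% and 73.9%. HK1, whose share was the value tested for the 3 genes, went from 28.7% ± 0.462 to 14.5% ± 1.18 (SD, n = 3 in each group, exact permutation p = 0.1, 0.157 after adjustment over 11 groups of paralogs). The order of the 3 genes was thus HK2, HK1 and HK3 in every scrambled sample. In the NFIC shRNA samples HK3 came first, and HK1 and HK2 differed by little in N2, where they made up 13.3% and 13.5%. In CPM per kb, HK2 went from 11.3 ± 0.225 to 4.75 ± 1.03 and HK3 from 5.56 ± 0.374 to 31.3 ± 2.30 (SD, n = 3 in each group).

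**Figure D3:**
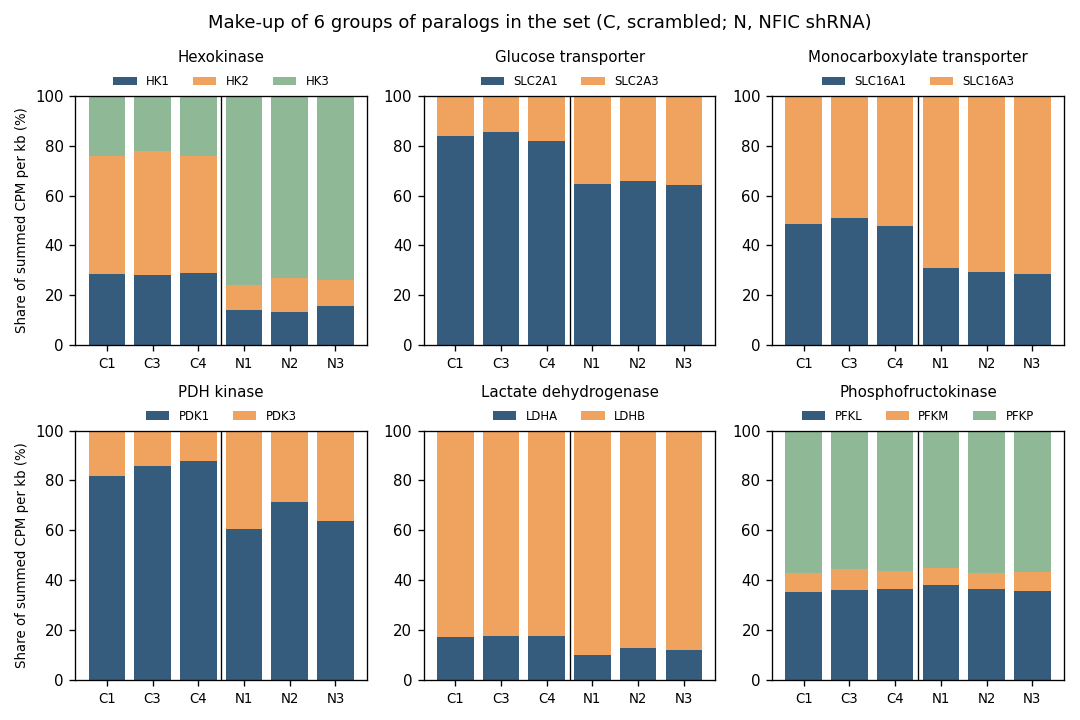
Share in percent (y axes) of each gene in the summed level per length of the paralogs of the set shown in its panel, in each scrambled (C1, C3, C4) and NFIC shRNA (N1, N2, N3) sample; colors mark the genes. The hexokinase panel changes most, HK3 going from 23.5% to 74.3% on average, while the phosphofructokinase shares stay close, PFKL being at 36.0% and 36.8%.

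The other enzymes of the upper, energy-consuming stretch of glycolysis fell or were not called. GPI (chromosome 19 from 34359480 to 34402413), which turns glucose 6-phosphate into fructose 6-phosphate, stood at 210, 223 and 216 CPM against 111, 143 and 107 CPM (log2 fold change -0.84 ± 0.092 SE, adjusted p = 9.42e-06 from edgeR). TPI1, the triosephosphate isomerase, stood at 371, 389 and 383 CPM against 259, 285 and 280 CPM (log2 fold change -0.47 ± 0.051 SE, adjusted p = 4.34e-07 from edgeR). The groups were far apart for both enzymes. ALDOC, a minor aldolase, had 27.1, 30.7 and 30.7 CPM against 14.7, 25.3 and 17.8 CPM, N2 lying just under the lowest scrambled sample. Its log2 fold change was -0.61 ± 0.16 SE (adjusted p = 0.00715 from edgeR), and without N3 it was -0.55 with an adjusted p of 0.0942 from edgeR. ALDOA, the major aldolase, had between 669 and 690 CPM against between 658 and 757 CPM and was not called (log2 fold change 0.06, adjusted p = 0.381 from edgeR; -0.00045 with upper-quartile normalization). The overlapping gene AC093512.2 shares exons with ALDOA on the same strand, and the counts of both differed by at most 0.103% in any sample, so they cannot be told apart. Per length, ALDOA made up 94.0% ± 0.355 of the 2 aldolases with scrambled shRNA and 96.2% ± 0.769 with NFIC shRNA (SD, n = 3 in each group, exact permutation p = 0.1).

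Phosphofructokinase, the committed step, changed little. PFKL, the liver-type subunit, had between 143 and 155 CPM against between 131 and 146 CPM (log2 fold change -0.09, adjusted p = 0.167 from edgeR). PFKP, the platelet-type subunit, had between 138 and 149 CPM against between 125 and 142 CPM (log2 fold change -0.12, adjusted p = 0.0677 from edgeR). The groups overlapped for both. PFKM, the muscle-type and least abundant subunit per length, had 24.5, 30.3 and 22.8 CPM against 20.4, 20.4 and 21.9 CPM. It was called (log2 fold change -0.31 ± 0.096 SE, adjusted p = 0.0105 from edgeR), but without C3, the high scrambled sample, the log2 fold change was -0.18 and the adjusted p 0.0803. No shift of the subunit make-up was detected, PFKL making up 36.0% ± 0.627 and 36.8% ± 1.15 of the summed level per length (SD, n = 3 in each group, exact permutation p = 0.4), with a difference of 0.889 percentage points.

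The lower, energy-yielding stretch was divided evenly, with 3 genes higher and 3 lower (50% each). Over all genes tested the division was also near even, with 29.6% higher and 30.3% lower. GAPDH (ENSG00000111640, chromosome 12 from 6534512 to 6538374), which makes 1,3-bisphosphoglycerate and is widely used as a reference gene, was among those that fell. Its raw counts of 39627, 45727 and 40520 in C1, C3 and C4 compared with 23463, 28980 and 26403 in N1, N2 and N3. Scaled, GAPDH fell to 63.3% of the scrambled mean, with 776 ± 12.6 CPM per kb against 491 ± 26.0 CPM per kb (SD, n = 3 in each group; log2 fold change -0.66 ± 0.051 SE, adjusted p = 7.05e-09 from edgeR). With scrambled shRNA GAPDH was the most abundant gene of the set per length, and this stayed so with NFIC shRNA. PGK1, the next enzyme, rose from 225, 246 and 229 CPM to 267, 270 and 274 CPM, a change of 0.21 ± 0.050 SE on the log2 scale (adjusted p = 0.00142 from edgeR). PGAM1, the phosphoglycerate mutase, rose from 208, 232 and 213 CPM to 347, 325 and 362 CPM (log2 fold change 0.66 ± 0.056 SE, adjusted p = 2.19e-08 from edgeR).

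ENO1, the main enolase, fell slightly, from 985, 1089 and 1007 CPM to 839, 876 and 924 CPM (log2 fold change -0.22 ± 0.054 SE, adjusted p = 0.00167 from edgeR). ENO2, an enolase best known from neurons and induced by HIF, was scarce, at 8.91, 10.3 and 10.6 CPM against 5.52, 9.81 and 4.85 CPM. N2 lay within the range of the scrambled samples, and ENO2 was the only gene called among the 38 whose groups overlapped (log2 fold change -0.56 ± 0.22 SE, adjusted p = 0.0426 from edgeR). Leaving out a sample took its adjusted p to between 2.03e-05, without N2, and 0.131, without N1. PKM, which makes pyruvate, rose from 599, 676 and 630 CPM to 702, 735 and 799 CPM (log2 fold change 0.23 ± 0.058 SE, adjusted p = 0.0023 from edgeR). The table gives PKM as a single gene, so the M1 and M2 splice forms are not separated.

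Lactate formation and export changed in make-up more than in a common direction. LDHA (ENSG00000134333, chromosome 11 from 18394560 to 18408425), the HIF-induced lactate dehydrogenase subunit, stood at 274, 299 and 282 CPM against 145, 190 and 157 CPM. The mean fell to 57.6% of the scrambled level (log2 fold change -0.79 ± 0.081 SE, adjusted p = 2.22e-06 from edgeR). Its processed pseudogene LDHAP2, which overlaps exons of LYST on the opposite strand, moved the other way (log2 fold change 0.75, adjusted p = 5.13e-07 from edgeR), and with the counts of 2 LDHA pseudogenes added the log2 fold change of LDHA was -0.64. LDHB, the subunit that favors pyruvate formation, had 650, 688 and 651 CPM against 630, 627 and 575 CPM. The groups of LDHB did not overlap, but its change of -0.12 was not called (adjusted p = 0.056 from edgeR). Its counts differed from those of the overlapping AC010197.2 by at most 0.469%, so LDHB and that gene cannot be told apart. Per length LDHB was the larger part in every sample, and the share of LDHA fell from 17.5% ± 0.242 to 11.7% ± 1.41 (SD, n = 3 in each group, exact permutation p = 0.1, 0.157 after adjustment over 11 groups of paralogs).

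SLC16A1 (MCT1; chromosome 1 from 112911847 to 112957593), a monocarboxylate transporter of both uptake and export, stood at 81.7, 80.2 and 81.8 CPM against 51.8, 48.9 and 44.6 CPM (log2 fold change -0.75 ± 0.062 SE, adjusted p = 1.82e-08 from edgeR). SLC16A3 (MCT4; chromosome 17 from 82217934 to 82261129), the low-affinity lactate exporter of glycolytic cells and a known HIF target, stood at 145, 130 and 151 CPM against 197, 200 and 188 CPM (log2 fold change 0.46 ± 0.057 SE, adjusted p = 2.42e-06 from edgeR). Per length, the carriers were near parity with scrambled shRNA, SLC16A1 making up 48.7%, 51.0% and 47.9% of the pair. With NFIC shRNA it made up 30.8%, 29.3% and 28.7%, and the groups did not overlap (exact permutation p = 0.1, 0.157 after adjustment over 11 groups of paralogs). The parity rests on the deposited gene lengths, 5312 bases for SLC16A1 and 8995 bases for SLC16A3. In CPM, SLC16A3 lay above SLC16A1 in every sample. CSNK1D overlaps 5.36% of the SLC16A3 exon bases on the opposite strand, has 110.4% as many counts and rose by 0.34 on the log2 scale.

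Shares were taken over genes of the set only, and paralogs outside it were left out, such as PDK2 and PDK4 (2.86 and 0.338 CPM per kb with scrambled shRNA, against 2.62 CPM per kb for PDK1) and ENO3 (56.0 CPM per kb, against 2.33 CPM per kb for ENO2). Across the 11 groups of paralogs, the hexokinases, glucose transporters, monocarboxylate transporters, pyruvate dehydrogenase kinases, lactate dehydrogenases, aldolases and collagen prolyl 4-hydroxylases had shares that did not overlap between scrambled and NFIC shRNA samples. That is 7 of 11, where 65.2% of all single genes tested did not overlap. With 3 samples a side an exact permutation test cannot give a two-sided p under 0.1, and none of the 11 passed the threshold. The phosphofructokinases, enolases, PFKFB enzymes and HIF alpha subunits had overlapping shares.

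**Figure D4:**
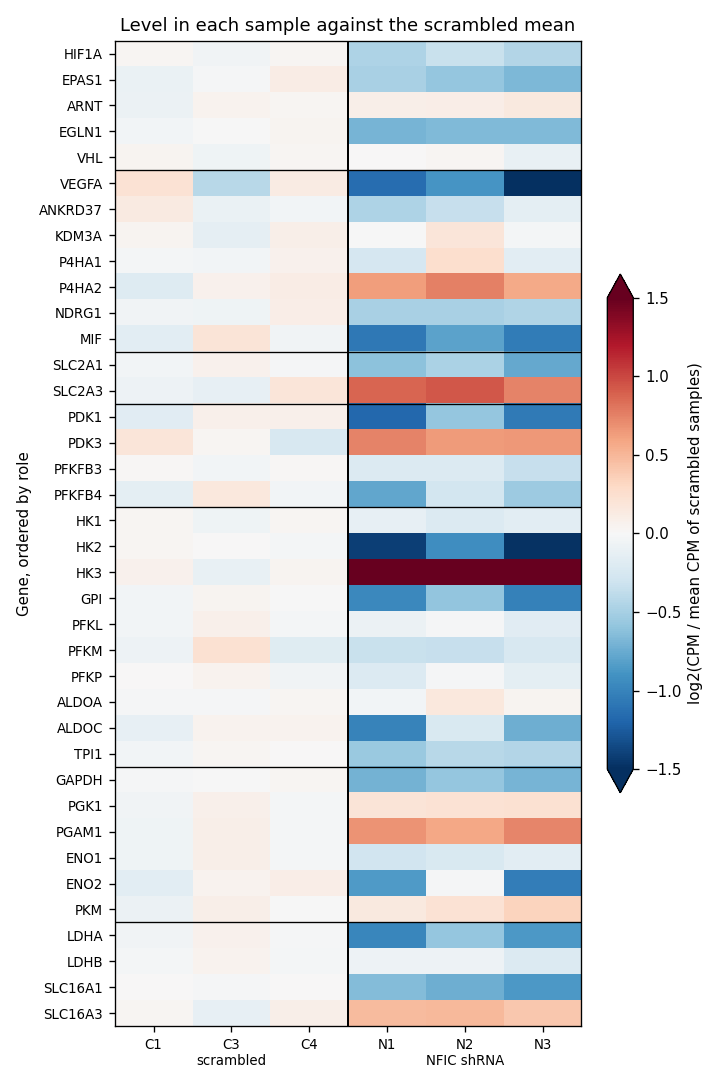
Level of each tested gene (rows, ordered by role) in each sample (columns), as log2 of its CPM over the mean CPM of the scrambled samples; the color scale ends at -1.5 and 1.5. Among the genes that were lower, the N2 column is paler than N1 and N3 for PDK1, PFKFB4, HK2, GPI, ALDOC, ENO2 and LDHA.

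The genes that fell did not do so equally in the 3 NFIC shRNA samples. N2 was the highest of the NFIC shRNA samples, and so nearest to the scrambled ones, for 14 of the 21 genes that were lower (66.7%). The share was the same, 6 of 9 (66.7%), for the genes of the set that were not called, and it was 3 of 8 (37.5%) for those that were higher. Over all genes tested N2 was the highest for 33.6%, and over all 5810 genes that were lower for 47.8%. In N2, 8 of the 21 genes were over 1.2 times the mean of N1 and N3 (38.1%), against 10.7% of all genes tested and 16.4% of all that were lower. The factor of 1.2 was chosen after the values were seen. The widest gaps were those of ENO2, ALDOC, PDK1, HK2 and VEGFA, where N2 was 1.89, 1.56, 1.45, 1.43 and 1.41 times the mean of N1 and N3. None of the 8 genes that were higher passed the factor of 1.2, and 1 of the 9 that were not called did (11.1%). NFIC itself was 1.10 times the mean of N1 and N3 in N2, and the part of this in the pattern was not tested. Without N2 the number of genes called lower was 23 in place of 21, 8 were called higher, and the log2 fold changes of HK2, PDK1, LDHA and VEGFA were -1.44, -1.11, -0.91 and -1.38.

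The genes of the set also differ in how cleanly their reads can be assigned. Of the 41, 24 share exon bases with another gene of the table, and for 19 of these the other gene has at least 5% as many counts. How reads in shared exons were counted, and whether strand was used, is not given in the sources used here. Counts of MIF and MIF-AS1, on opposite strands, nearly coincided, as did those of ALDOA with AC093512.2 and LDHB with AC010197.2. Reads in shared exons thus appear to have been counted for both genes, and for MIF without regard to strand. The counts of a gene may therefore include reads of a partner on either strand. Among the 22 other genes, of which 20 were tested, 11 were lower and 6 higher. Over all genes tested, 30.3% were lower and 29.6% higher, so the part that was higher was near that of all genes. VEGFA shares 1.30% of its exon bases with AL136131.3, and GAPDH shares 17.6% with AC006064.4, which has 46.9% as many counts and a log2 fold change of -0.64. VHL shares 27.84% of its exon bases with AC034193.1 on the opposite strand, which has 59.76% as many counts. PFKM shares 7.121% with SENP1 on the opposite strand, which has 145.4% as many counts. HK2, SLC2A1, PGAM1 and NDRG1 have no such partner in the table.

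Genes of the same pathways that are outside the set were counted for comparison, in lists also drawn up with earlier results of these data known. Beside them stand the 59.9% of all genes tested that were called, 30.3% lower and 29.6% higher. Of 30 other targets of HIF, 28 were tested, 15 were lower (53.6%) and 8 higher (28.6%), with a median log2 fold change of -0.28. The strongest evidence for a decrease was for ZNF395, at 41.4, 38.4 and 39.4 CPM against 13.0, 17.7 and 13.0 CPM (log2 fold change -1.44), for DDIT4, an inhibitor of mTORC1, at 86.1, 78.1 and 85.7 CPM against a range of 31.2 to 41.1 CPM (-1.22), and for ERO1A, an oxidase of the endoplasmic reticulum (-0.80). Their adjusted p from edgeR were 3.69e-09, 4.07e-09 and 5.74e-07. JMJD6, VLDLR and BNIP3L rose by 0.97, 0.63 and 0.95 on the log2 scale (adjusted p = 1.11e-09, 5.80e-09 and 8.29e-09 from edgeR). N2 was the highest of the NFIC shRNA samples for 14 of the 15 that were lower. BNIP3, a mitophagy receptor named after its values were seen, had 73.1, 66.5 and 68.4 CPM against 32.1, 59.8 and 31.5 CPM, and with N2 so close to the scrambled samples it was not called (log2 fold change -0.75, adjusted p = 0.053 from edgeR).

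Of 16 regulators of HIF stability and activity outside the set, 14 were tested, 9 were higher (64.3%, against 29.6% of all genes tested) and 3 lower (21.4%, against 30.3%), with a median log2 fold change of 0.21. OS9 rose from 557, 552 and 576 CPM to 890, 851 and 887 CPM (log2 fold change 0.64, adjusted p = 4.33e-09 from edgeR). EGLN2, a prolyl hydroxylase like EGLN1, rose by 0.47 (adjusted p = 1.14e-06 from edgeR), so the hydroxylases EGLN1 and EGLN2 moved in opposite directions. USP20, a deubiquitinase, rose by 0.48 (adjusted p = 2.15e-06 from edgeR). RACK1, CREBBP and SIAH2 fell, with log2 fold changes of -0.91, -0.63 and -0.59 (adjusted p = 6.32e-10, 2.85e-08 and 3.54e-07 from edgeR). RACK1 is also a ribosomal protein, and CREBBP is a coactivator with many partners other than HIF.

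Of 22 other genes of glycolysis and hexose handling, 21 were analysed here and 14 were tested, with 3 higher, 6 lower and a median log2 fold change of -0.05. The share called, 64.3%, was near that of all genes tested, 59.9%. PGM1, which was lower (log2 fold change -0.37), is also among the other targets of HIF above and is counted in both lists. SLC2A5, the fructose transporter GLUT5, fell from 72.1, 76.1 and 65.3 CPM to a range of 33.1 to 40.7 CPM (log2 fold change -0.97, adjusted p = 1.75e-08 from edgeR). SLC2A6, a lysosomal hexose transporter of leukocytes, rose from 5.08, 6.57 and 6.62 CPM to 9.79, 9.38 and 12.6 CPM (log2 fold change 0.80, adjusted p = 0.000109 from edgeR). BPGM, which makes 2,3-bisphosphoglycerate, fell by 0.73 (adjusted p = 0.000363 from edgeR), while PGM2 and PGP rose by 0.32 and 0.29 (adjusted p = 0.000267 and 0.00119 from edgeR). FBP2, an enzyme of gluconeogenesis, was near the detection limit, at 0.785, 0.730 and 0.793 CPM against 0.0969, 0.215 and 0 CPM, and was lower (adjusted p = 0.000327 from edgeR).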

How the data were processed

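RNA from 6 samples of sorted THP-1 cells, 3 with scrambled and 3 with NFIC shRNA, was sequenced in paired ends. According to the study's methods and the submitters' processing notes, the authors trimmed reads with Trim Galore, inspected them with FastQC, aligned them with STAR to GRCh38 and counted them per gene of Ensembl release 96 with featureCounts. Tool versions, and the handling of strand, multi-mapped reads and duplicates, are not given in the sources used here. The authors deposited these raw counts per gene and sample, without normalization, together with each gene's length in bases. The same table also holds 12 columns of normalized values per sample and the authors' own DESeq2 comparison (mean, fold change, its error, statistic and p-values), and these columns were not used here.

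The counts were fitted with edgeR 4.0.16 (R 4.3.3), using TMM normalization, filterByExpr, robust dispersions and the quasi-likelihood test, on all 6 samples without a block. P-values were adjusted by the Benjamini-Hochberg method over all 19182 genes tested, and the threshold was 0.05. The standard error (SE) is the log2 fold change divided by the square root of F. CPM per kb is the TMM-scaled CPM divided by the deposited gene length in units of 1000 bases. Shares and orders of genes per length were taken in this unit, so they depend on that length. Shares of paralogs of the set were compared with exact two-sided permutation tests over samples. Positions are from GENCODE 44 on GRCh38, and promoter windows are from RefSeq on GRCh38.p14. The edgeR fit was tried on simulated counts in which only a few genes changed. That does not test its scaling where 59.9% of all genes tested are called, as here. Depth was 20369543 to 24809720 counts per sample.

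The genes and lists were chosen with earlier results of these data known. All genes of the set were named, with NFIC, and of every other list up to 3 genes in each direction with the smallest adjusted p. Alternatives were DESeq2 1.42.0, DESeq2's size factors, upper-quartile normalization, no filter, at least 10 counts in every sample, each of the 6 samples left out, blocks by replicate number and the addition of pseudogene counts. Samples with the same replicate number in the labels did not deviate together (correlations across genes of 0.0563, -0.0862 and -0.0446), so no pairing was assumed. The pairing by sample names is given with the alternatives. Within groups, no pair of samples agreed within sampling noise (chi-square per degree of freedom between 1.99 and 7.91).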

Additional observations from a re-analysis of the deposited data

How the results depend on the processing

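Of the 29 genes of the set that were called, 25 kept their call and direction in all 14 alternatives, and the exceptions were HK1, PFKM, ALDOC and ENO2. Of the 9 that were not called, 3 stayed so throughout. Leaving out each sample in turn gave between 18 and 23 genes lower, with 8 higher each time. With upper-quartile normalization the median of the set was -0.34 in place of -0.28, 5 of the other HIF regulators were lower in place of 3, and 2 genes of the TCA cycle were higher in place of 5. Under the same scaling KDM3A (-0.0046) and ALDOA (-0.00045), neither of them called, changed sign. With each sample left out in turn, 3 genes that were not called ranged over both signs: KDM3A from -0.018 (without C3) to 0.098, P4HA1 from -0.20 (without N2) to 0.070 (without N1), and VHL from -0.062 to 0.019 (without N3). The causes were not tested. With genes that share exons with a well-covered neighbor left out, an alternative added after seeing the data, 11 were lower in place of 21 because fewer genes remained. DESeq2 called 20 lower and 8 higher. A replicate block by the number in the labels gave 20 lower and 8 higher. A block by the number in the sample names, which pairs C1 with N1 and C3 with N3, gave 24 lower and 9 higher. Deviations from the group means correlated at 0.0563 for C1 with N1 and 0.145 for C3 with N3 across all genes, and at 0.457 and 0.392 across the set. With only 2 such pairs, the replicates were taken to share only a number. Shares of paralogs could not reach an exact p under 0.1, and genes at 1 to 7 counts per sample could not be compared at this depth.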

Other observations

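Neighboring routes of glucose carbon were measured in the same samples. A list of 13 genes covered the entry of pyruvate into the mitochondrion and its first conversion there. Of these, 3 were higher and 5 lower at an adjusted p under 0.05 from edgeR, with a median log2 fold change of -0.0015. The share called, 61.5%, was near the 59.9% of all genes tested. MPC2, a subunit of the pyruvate carrier, rose from 31.1, 33.6 and 33.0 CPM to 44.6, 42.6 and 49.3 CPM. PDHB and DLAT, subunits of the pyruvate dehydrogenase complex, fell, with log2 fold changes of -0.45 and -0.53, while PDHX, which binds its E3 component, rose by 0.43. Of the pyruvate dehydrogenase kinases, PDK2 fell by 0.57 and PDK4 rose by 0.75 on the log2 scale, so that with PDK1 and PDK3 the kinases held members in both directions.

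Of 8 genes of the pentose phosphate pathway, 2 were higher and 4 lower (75% called), with a median of -0.12. PGD, the second dehydrogenase of the oxidative arm, rose from 230, 237 and 229 CPM to 309, 312 and 309 CPM, and RPE rose by 0.50 on the log2 scale. H6PD, the dehydrogenase of the endoplasmic reticulum, fell from 135, 131 and 129 CPM to 78.1, 78.3 and 65.6 CPM, and RPIA and TALDO1 fell by 0.36 and 0.15. Of 17 genes of the TCA cycle, 5 were higher and 7 lower (70.6% called), with a median of -0.12. CS, the citrate synthase, fell from 305, 317 and 307 CPM to 197, 208 and 204 CPM (log2 fold change -0.61, adjusted p = 9.37e-09 from edgeR). IDH3B and IDH3G, subunits of isocitrate dehydrogenase, fell by 0.36 and 0.46, whereas SDHA and SDHC, subunits of succinate dehydrogenase, and SUCLA2 rose by 0.21, 0.22 and 0.23.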
